A study of Homo sapiens with 4 samples.

Results

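The genes described here encode the transcription factor MYC, its dimer partner MAX and the proteins that compete with MYC for MAX or work through the related protein MLX. They were MYC, MAX, MXD1, MXD3, MXD4, MXI1, MNT, MGA, MLX and MLXIP, and a probe set (the group of array probes that reads one transcript) was a member when the platform annotation gave it exactly 1 gene symbol and that symbol was on the list. This rule found 27 probe sets of 9 genes among 54613 probe sets that were not controls. MXD4 had none, because its 3 probe sets carried a further symbol. A filter that left out the dimmest 40% of probe sets kept 24 of the 27, among 32768 in all. The 3 that were left out, 1 of MGA and 2 of MLXIP, lay between 1.61 and 3.11 log2 on every array.

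RNA came from KYSE410, an established line of human esophageal squamous cell carcinoma, and was read on 4 Affymetrix 3' expression arrays, with labelled cRNA made from 200 ng of total RNA. There were 2 untreated arrays and 2 arrays of cells given 20 nM YM155, a compound known for lowering survivin expression, for 6 h. The submitters' treatment protocol instead names cisplatin (10 mM, 12 h), and the design text mentions both compounds. The sample labels and the series title name YM155, and they set the groups here. No allele or transgene is named for either group. One YM155 array is titled B1 and the other B2, with no meaning given for either code. Because no label ties an array to a culture of its own, p-values reflect only how far these arrays differ, and that spread may be technical.

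MYC binds DNA as a dimer with MAX at the E-box, whose preferred letters are CACGTG, and raises transcription of genes of growth, ribosome assembly and metabolism. The MXD proteins (MXD1, MXI1, MXD3 and MXD4), MNT and MGA also pair with MAX at the same sites but recruit repressors, the MXD and MNT proteins through SIN3 and its histone deacetylases. MLX is a second hub: it pairs with some MXD proteins and MNT, and with the glucose-sensing activators MLXIP (MondoA) and MLXIPL (ChREBP). In squamous epithelium MYC is tied to proliferation of the basal layer, and MXD1 is known to come on as keratinocytes differentiate.

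Since these proteins act on a shared DNA element, its presence at their own genes and at the targets described further on is shown first. Of the 10 listed genes, 9 had a promoter window in the RefSeq table (build GRCh38.p14, 250 bases before to 50 after the start). The gene without one was MYC itself, so its promoter was not examined. The window held CACGTG, which reads the same on both strands, for 3 of the 9: MNT, MLX and MXD4. None of the 3 windows of MXI1 held it. Over all 27305 genes with a window, 8.77% had the motif in at least 1 window, and over all 35116 windows 7.26% had it. The following 30-base stretches, on the strand of the gene, show the motif in capitals for these 3 genes and for 3 targets whose values are given further on. They lie at chr17:2401236-2401265 (minus strand), chr17:42567038-42567067 (plus), chr4:2262330-2262359 (minus), chr2:10448024-10448053 (minus), chr15:97960481-97960510 (plus) and chr10:6202812-6202841 (plus), and the motif began 193, 50, 238, 29, 210 and 108 bases before the start, in that order.
MNT: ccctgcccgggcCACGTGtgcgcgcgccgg
MLX: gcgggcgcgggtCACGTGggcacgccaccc
MXD4: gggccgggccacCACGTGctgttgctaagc
ODC1: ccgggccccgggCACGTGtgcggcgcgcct
ARRDC4: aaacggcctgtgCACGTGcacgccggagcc
PFKFB3: caccctcctcccCACGTGgaagggggctgg
The letters beside the motif differed from site to site. The whole 250 bases before the start follow for MNT (chr17:2401061-2401310, minus strand) and MLX (chr17:42566850-42567099, plus strand), again with the motif in capitals. These were the 2 network genes that had both the motif and a probe set with exactly 1 symbol.
MNT upstream: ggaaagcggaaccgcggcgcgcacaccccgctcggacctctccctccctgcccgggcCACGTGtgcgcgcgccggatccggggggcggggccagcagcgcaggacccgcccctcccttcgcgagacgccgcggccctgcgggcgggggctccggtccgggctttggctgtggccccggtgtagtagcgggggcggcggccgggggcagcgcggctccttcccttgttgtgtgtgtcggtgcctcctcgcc
MLX upstream: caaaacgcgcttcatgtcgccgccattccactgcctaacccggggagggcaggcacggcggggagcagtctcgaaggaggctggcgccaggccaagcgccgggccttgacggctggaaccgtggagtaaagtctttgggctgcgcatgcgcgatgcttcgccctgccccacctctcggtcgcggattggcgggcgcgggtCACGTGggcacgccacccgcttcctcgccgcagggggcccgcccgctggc
A match to these letters is a description of the reference sequence and was not shown to be bound in these cells.

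Across the table the arrays were unequal. The untreated pair stood at least 2-fold apart at 1690 of 32768 tested probe sets and the YM155 pair at 56, and untreated replicate 1 differed that much from YM155 replicates 1 and 2 at 739 and 850, fewer than from its own partner. The ACTB 3' to 5' signal difference, a sign of RNA integrity, was 2.72 and 2.18 log2 in untreated replicates 1 and 2 and 2.10 and 2.95 in YM155 replicates 1 and 2. For GAPDH it was 0.042 and 0.043 in untreated replicates 1 and 2 and 0.033 and 0.21 in YM155 replicates 1 and 2. Of 6 listed squamous markers 3 had a probe set with 1 symbol: the keratin gene KRT5 lay between 10.7 and 11.2 log2, KRT14 between 8.38 and 9.26, and SOX2 at 6.74 and 4.87 without the drug and 5.48 and 5.64 with it. The 13 markers of fibroblasts, leukocytes and endothelium lay between 2.05 and 6.24 log2 on all arrays. The filter's limit of 3.32 was passed by 2 of 5 fibroblast markers (COL1A1 and PDGFRB), 2 of 5 leukocyte markers (CD3E and CD79A) and 2 of 3 endothelial markers (PECAM1 and VWF). The others, PTPRC and CDH5 among them, lay below it. COL1A1 was the brightest, between 6.08 and 6.24. By limma with Benjamini-Hochberg adjustment, the adjusted threshold of 0.05 was passed by 0 of 32768 probe sets in either direction, and 3633 had an unadjusted p under 0.05.

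MYC stood higher after YM155 than in untreated cells, and it was the member with the largest difference. MAX, its partner, gave no common direction over its probe sets. MXI1 and MXD3 stood lower and MLXIP higher, all of them chiefly against untreated replicate 2, and the 95% intervals of MXI1, MXD3 and MLXIP included 0. MXD1 went both ways, MNT lay near 0, and MGA had small positive differences whose 95% intervals included 0. None of the 24 tested member probe sets passed the adjusted threshold, as for all probe sets (0% higher and 0% lower), and adjusted p ran from 0.335 for MYC to 0.954 (limma, Benjamini-Hochberg over 32768 probe sets). At an unadjusted p under 0.05 there was 1 member probe set, that of MYC, against a background of 5.03% of probe sets higher and 6.06% lower. Both YM155 arrays lay above both untreated arrays at 6 member probe sets (19.4% of all probe sets) and below them at 7 (23.9%). Those shares of the 24 members were close to the background. Against untreated replicate 2 alone, 13 lay above and 9 below, where all probe sets gave 39.8% and 41.2%. Against untreated replicate 1 alone, 7 lay above and 10 below, where all probe sets gave 33.8% and 42.8%.

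**Figure D1:**
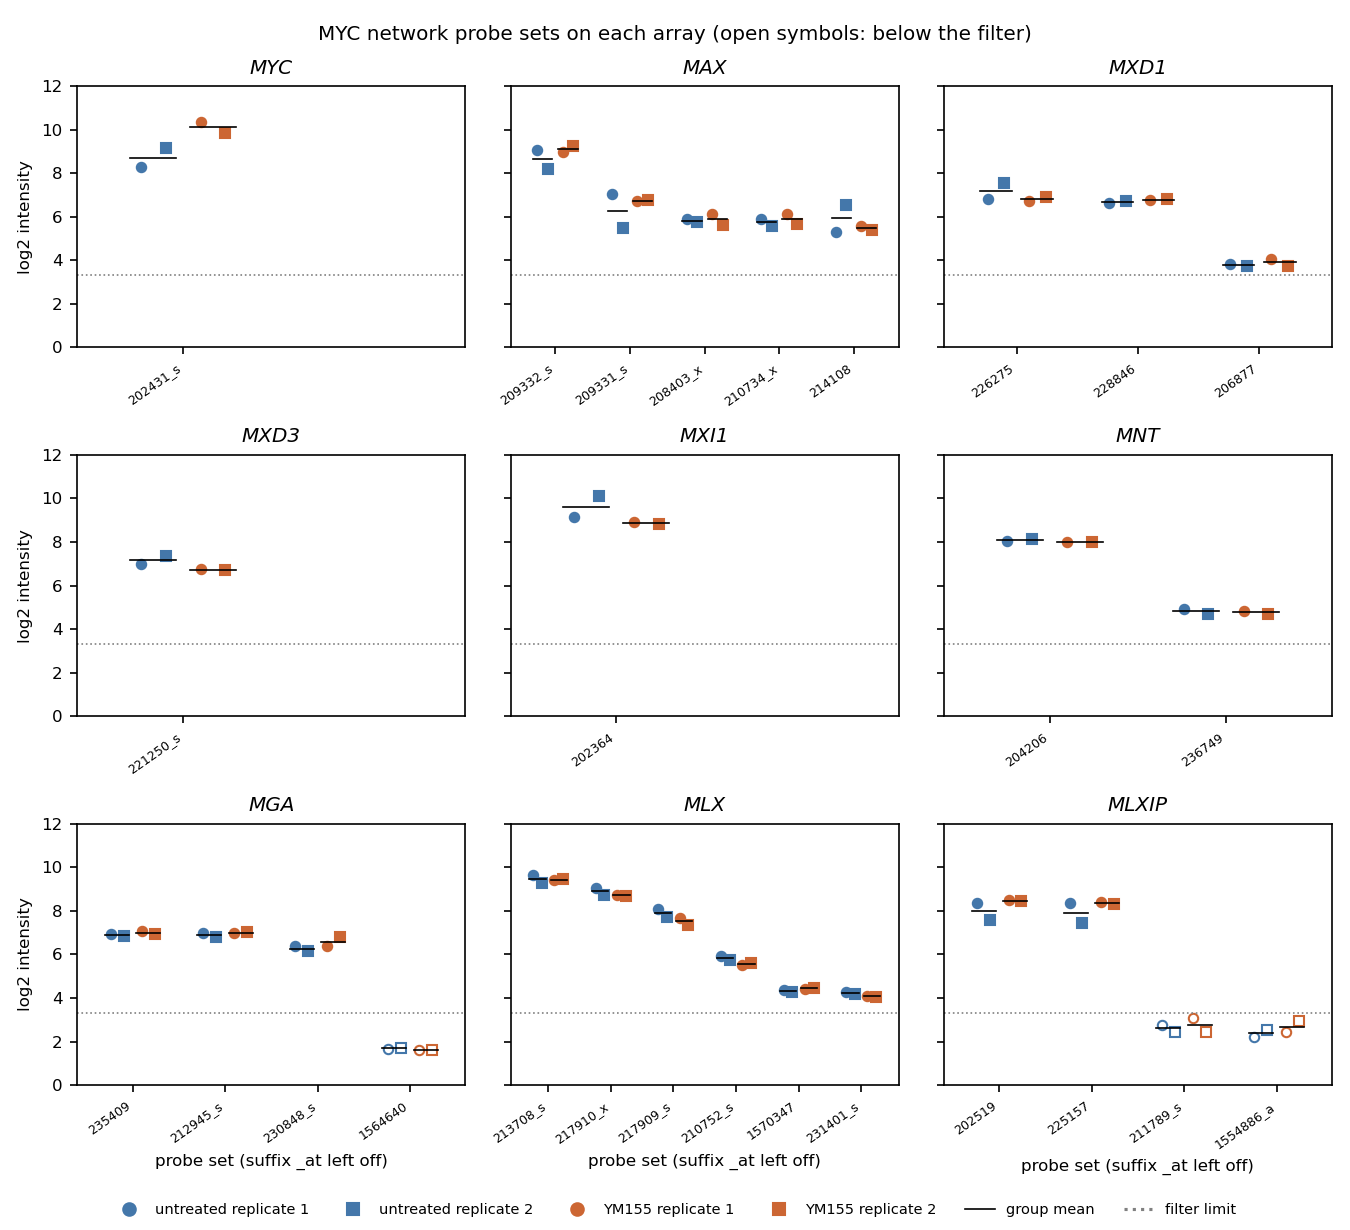
Log2 intensity of the 27 probe sets of 9 network genes on each of 4 arrays (circles replicate 1, squares replicate 2, blue untreated, orange YM155, black bars group means). Open symbols mark the 3 probe sets below the filter, and the dotted line its limit of 3.32 log2. The YM155 arrays of MYC lie above its untreated arrays, and the blue symbols of MAX, MXI1 and MLXIP lie farther apart than the orange ones in their brightest probe sets.

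MYC had 1 probe set (202431_s_at), with intensities of 315 and 562 in untreated replicates 1 and 2 and 1302 and 920 in YM155 replicates 1 and 2. On the log2 scale these were 8.30, 9.13, 10.35 and 9.84. All of the YM155 values were above both untreated values, but the arrays of each group were themselves 0.83 (untreated) and 0.50 (YM155) log2 apart. Group means were 8.72 ± 0.59 in untreated and 10.10 ± 0.35 in YM155 arrays (SD, n = 2 each). The difference was 1.38 ± 0.34 log2 (SE; 95% interval 0.48 to 2.28), or 2.60-fold, with an adjusted p of 0.335 by limma. It was 1.80 log2 against untreated replicate 1 and 0.96 against untreated replicate 2. Only 0.302% of all tested probe sets had a larger positive difference. In each group, the array with the higher MYC value was the one with the smaller ACTB 3' to 5' difference. For the GAPDH difference this held in the YM155 arrays only (0.033 and 0.21 log2 in replicates 1 and 2). The untreated arrays were nearly level for GAPDH (0.042 and 0.043). The part of RNA quality in the MYC values was not tested.

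MAX, the partner that MYC, the MXD proteins, MNT and MGA share, had 5 probe sets, and their groups overlapped at all 5. Its brightest probe set (209332_s_at) read 9.08 and 8.17 log2 without the drug (replicates 1 and 2) and 8.96 and 9.25 with it. Here untreated replicate 2 was the low array and the other untreated array lay between the YM155 arrays. The difference was 0.48 ± 0.34 (SE; 95% interval -0.40 to 1.36; adjusted p = 0.650, limma). A second probe set (209331_s_at) had the same shape, with 7.05 and 5.50 without the drug and 6.70 and 6.77 with it. The dimmest (214108_at) ran the other way, at 5.30 and 6.55 without the drug and 5.55 and 5.40 with it, a difference of -0.44 ± 0.43. The 2 probe sets with the suffix _x_at, which marks probes that may also bind other transcripts, had differences of 0.064 and 0.15. MAX therefore had 4 positive differences and 1 negative, and the 2 brightest were 0.93 and 1.24 against untreated replicate 2 but 0.025 and -0.32 against untreated replicate 1.

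Among the MXD repressors, MXI1 had the largest difference. Its only probe set (202364_at) read 9.15 and 10.10 log2 without the drug and 8.91 and 8.84 with it. Both YM155 arrays lay below both untreated arrays, though untreated replicate 1 was only 0.27 above the YM155 mean and untreated replicate 2 was 1.22 above it. The difference was -0.75 ± 0.34 (SE; 95% interval -1.63 to 0.13; adjusted p = 0.506, limma), and 2.91% of all tested probe sets lay lower. MXD3, a member expressed in cycling cells, read 6.98 and 7.34 log2 without the drug and 6.75 and 6.73 with it. Its groups did not overlap either, and the difference was -0.42 ± 0.18 (adjusted p = 0.480), or -0.24 and -0.60 against untreated replicates 1 and 2.

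MXD1, the founding MXD gene, gave unlike results over its 3 probe sets. The brightest (226275_at) read 6.82 and 7.54 log2 without the drug and 6.73 and 6.90 with it, where untreated replicate 2 alone stood apart. Its difference of -0.36 ± 0.27 (SE) came to -0.72 against untreated replicate 2. The second (228846_at) was nearly level, at 6.64 and 6.70 without the drug and 6.76 and 6.81 with it, and its groups did not overlap, with a difference of 0.12 ± 0.13. The third (206877_at) was dim, between 3.72 and 4.04, with a difference of 0.12 ± 0.16. MXD1 thus gave no single direction.

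MNT, the most widely expressed MAX-binding repressor, lay near 0 at both probe sets. Its brighter probe set (204206_at) read 8.03 and 8.15 log2 without the drug and 8.01 and 8.01 with it, a difference of -0.076 ± 0.14 (SE) with a 95% interval of -0.43 to 0.28. The other (236749_at) gave -0.059, with an interval of -0.46 to 0.34. MGA, a large protein that pairs with MAX and belongs to a Polycomb complex, had positive differences at its 3 tested probe sets, 0.11, 0.13 and 0.33. The last of these (230848_s_at) read 6.37 and 6.14 without the drug and 6.39 and 6.79 with it, with an interval of -0.19 to 0.85. Changes of about 2-fold lay outside the intervals of every tested MNT and MGA probe set, whereas smaller ones could not be told from 0.

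**Figure D2:**
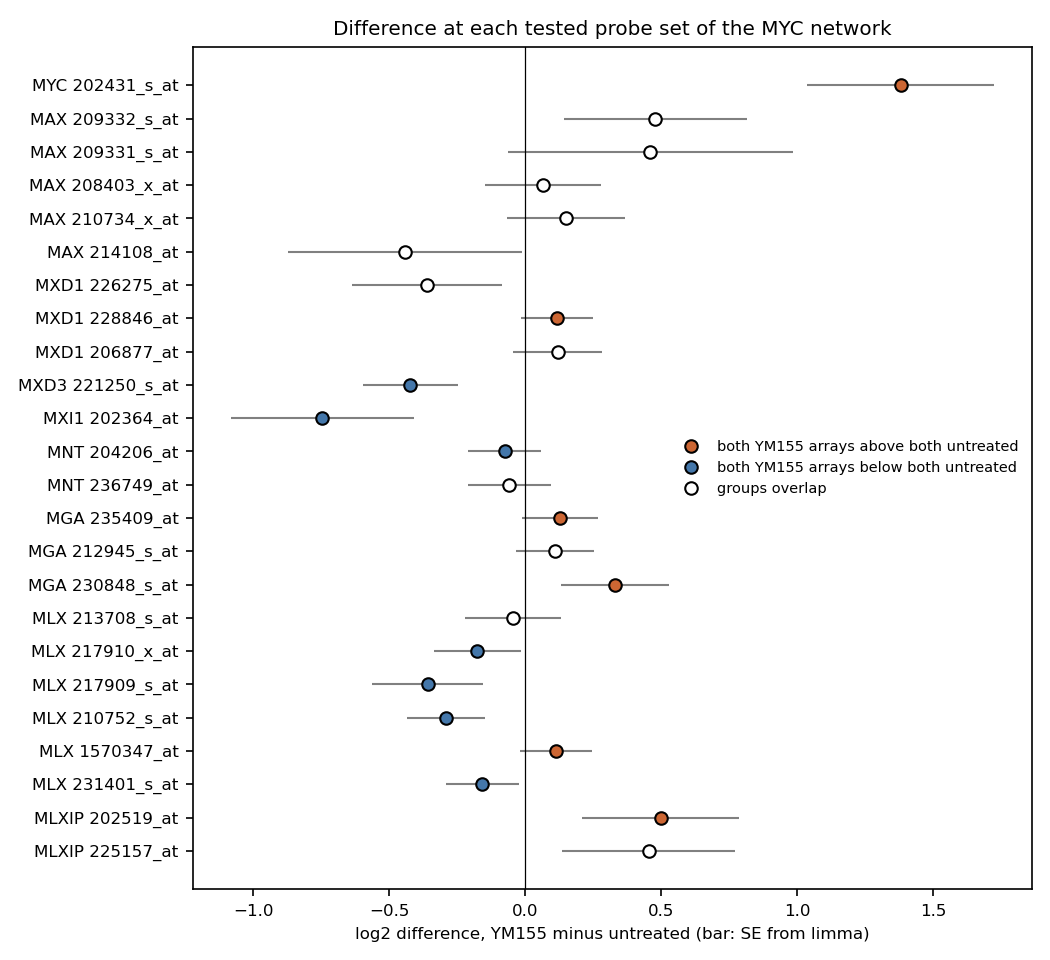
Log2 difference (YM155 minus untreated) at each of the 24 tested member probe sets, with bars for 1 SE from limma. Orange and blue points are probe sets whose YM155 arrays both lay above (6) or both below (7) the untreated arrays, and white points overlap. MYC stands at 1.38, apart from the other members, which lie between -0.75 and 0.50.

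MLX, the second hub, had slightly negative differences at most of its probe sets, and these were larger against untreated replicate 1. It had 6 probe sets, 5 with negative differences, and both YM155 arrays lay below both untreated arrays at 4 of them (23.9% of all probe sets) and above at 1 (19.4%). Its brightest probe set (213708_s_at) read 9.67 and 9.30 log2 without the drug and 9.42 and 9.45 with it, so that the groups overlapped and the difference was -0.045 ± 0.18 (SE). The largest of the 6 (217909_s_at) was -0.36 ± 0.20, from 8.07 and 7.71 without the drug and 7.70 and 7.37 with it (adjusted p = 0.582, limma). Against untreated replicates 1 and 2, 217909_s_at stood at -0.54 and -0.18, 217910_x_at at -0.32 and -0.031, and the brightest at -0.23 and 0.14. Of the dim probe sets, 1570347_at gave 0.11 and 231401_s_at, among the 4 that lay below, gave -0.16.

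MLXIP, which carries the glucose-sensing function, had 2 tested probe sets with much the same values. The brighter (202519_at) read 8.37 and 7.58 log2 without the drug and 8.48 and 8.47 with it, and the other (225157_at) 8.34 and 7.46 without the drug and 8.39 and 8.31 with it. In both, untreated replicate 2 was low and the other 3 arrays were close together. The differences were 0.50 ± 0.29 and 0.45 ± 0.32 (SE; adjusted p = 0.588 and 0.648, limma). Against untreated replicate 1 they were 0.10 and 0.011, and against untreated replicate 2 they were 0.89 and 0.90.

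MYC was then set against each partner and antagonist within the arrays, as the log2 value of MYC minus that of the member, which compares changes and not levels. Over 23 member probe sets, the MYC difference exceeded the member's by 0.88 to 2.13 log2. For 19 of them the YM155 arrays lay wholly above the untreated arrays on this scale, and the other 4 were the 2 brighter MAX and the 2 tested MLXIP probe sets. The same held for 93.5% of all other tested probe sets, so the count is not particular to the network. With 2 arrays against 2, the two-sided exact permutation test has 6 splits and cannot give a p below 0.333, the value reached for those 19. All of these comparisons share the same MYC values, so they are not independent of each other. The widest was MYC against MXI1, at 2.13 log2, where MYC minus MXI1, counted from the untreated mean, was 0.055 and -0.055 without the drug and 2.34 and 1.91 with it. For MXD3 it was 1.80 and for the brightest MXD1 probe set 1.74. The narrowest, with the brighter MLXIP probe set, was 0.88, and with the brightest MAX probe set it was 0.90.

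**Figure D3:**
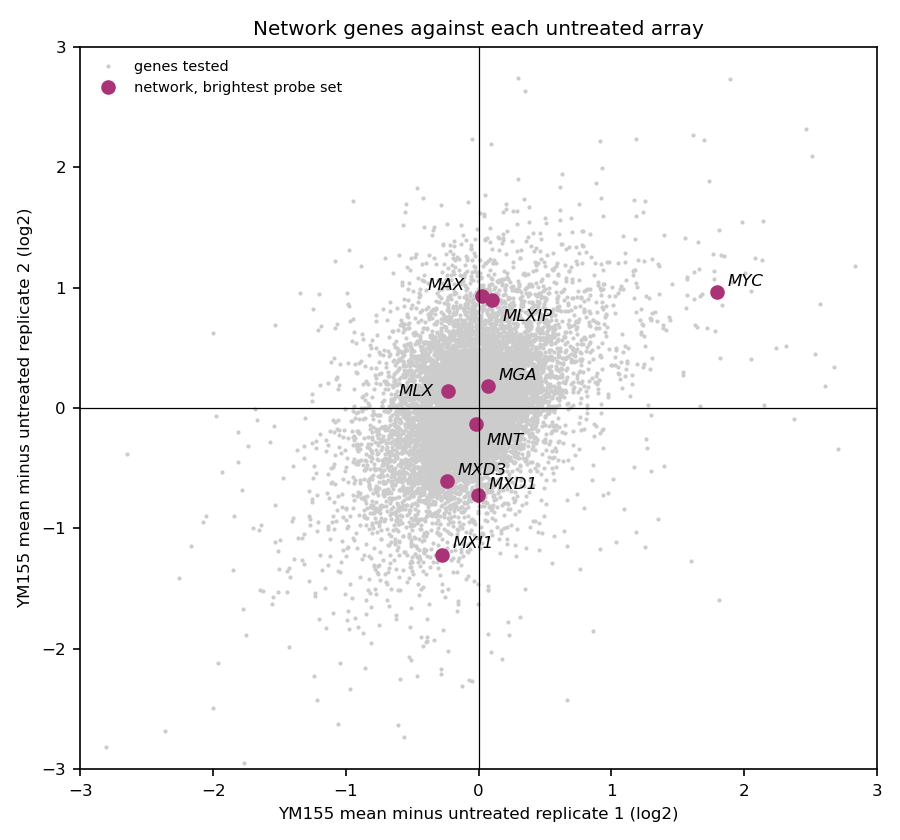
Mean of the YM155 arrays minus untreated replicate 1 (horizontal, log2) and minus untreated replicate 2 (vertical, log2) for the brightest probe set of each of 9 network genes (purple) and for 14043 tested genes (grey; 7 genes beyond 3 log2 are not drawn). Both axes use the same YM155 mean. MYC is positive on both axes (1.80 and 0.96), while MAX and MLXIP lie near 0 on the horizontal axis and near 0.9 on the vertical axis, and MXI1 reaches -1.22 on the vertical axis.

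The dependence on the untreated arrays also showed when untreated replicate 1 was left out. In the fit with 1 probe set per gene, the one of highest mean signal, limma then called 604 of 14043 genes higher (4.3%) and 521 lower (3.71%), against 0 with all arrays (0% in each direction; 734 higher, 5.23%, and 1051 lower, 7.48%, at an unadjusted p under 0.05). Of the 9 network genes, MXI1 was called lower (-1.22, adjusted p = 0.0407) and MLXIP higher (0.89, adjusted p = 0.0413). MXD3 (adjusted p = 0.0571), MAX (0.0600), MXD1 (0.0611) and MYC (0.105) were not. In the fit of all probe sets 0 were called without that array. A lone untreated array is assumed there to vary like the YM155 arrays.

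The remaining family members, MYCN, MYCL and MLXIPL, were measured at low signal. MLXIPL, the ChREBP gene, read 5.59 and 5.67 log2 without the drug and 5.25 and 5.20 with it, a difference of -0.41 ± 0.12 (SE; adjusted p = 0.318, limma over 14043 genes) that was alike against both untreated arrays (-0.37 and -0.45). MYCN (0.023) and MYCL (0.084) differed by less than their arrays did within a group in their brightest probe sets. The other probe sets of MYCN gave -0.29 and -0.19, both with the YM155 arrays below the untreated arrays, and that of MYCL gave -0.14. The gene profiles nearest to that of MYC over the 4 arrays, by Euclidean distance between log2 values centred on their mean, were those of FST (follistatin, distance 0.10), RHOB (a small GTPase, 0.20), HES1 (a Notch target repressor, 0.24), OSR2 (a zinc finger factor, 0.28) and SIK1 (a salt-inducible kinase, 0.29). FST had a difference of 1.31 ± 0.31 (SE), and untreated replicate 1 was its lowest and YM155 replicate 1 its highest array, as for MYC. That likeness follows from choosing the genes by their distance to the MYC profile. Other probe sets of these genes were not always alike: those of FST gave 1.32 and 2.25 and that of HES1 1.51, but those of RHOB and SIK1 gave 0.024 and -0.19.

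Genes known as MYC-activated targets had positive differences more often than negative ones, though classes of them differed. This list and those that follow were drawn up with earlier results of these data known. Their shares beside those of all genes are therefore a description and not a test. Of 66 listed, 57 had a tested probe set, and 37 of the 57 had positive differences, with a median of 0.16 log2 against -0.015 over all 14043 genes. Both YM155 arrays lay above both untreated arrays for 26 (45.6%, against 19.3% of all genes) and below for 7 (12.3%, against 25.6%). At an unadjusted p under 0.05, 7 were higher (5.23% of all genes) and 1 lower (7.48%), and 0 passed after adjustment over all genes. The list median was 0.060 against untreated replicate 1 and 0.23 against untreated replicate 2. Without untreated replicate 1, 35 lay above and 15 below, where all genes gave 42.3% and 40.1%, and without untreated replicate 2, 31 lay above and 16 below, where all genes gave 31.6% and 47.4%. Untreated replicate 2 itself differed from replicate 1 by -0.15 in median for these genes.

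By class, 28 nucleolar targets had a median of 0.30, with 21 positive (6612 of all 14043 genes). Both YM155 arrays lay above for 16 of the 28 (57.1%, against 19.3% of all genes) and below for 3 (10.7%, against 25.6%). The median was 0.23 for 8 mitochondrial targets, -0.052 for 8 metabolic ones and -0.16 for 6 of replication and the cell cycle. In these classes both YM155 arrays lay above for 4, 3 and 1 genes and below for 1, 1 and 2, in that order. With single arrays left out, the mitochondrial median lay between 0.12 (without untreated replicate 2) and 0.28, the metabolic one between -0.073 and 0.046 (without untreated replicate 2), and that of replication and the cell cycle between -0.24 and -0.0062 (without YM155 replicate 2). The nucleolar median was 0.13 against untreated replicate 1 and 0.42 against untreated replicate 2. NIP7, a factor of large ribosomal subunit assembly, had the largest difference of the activated targets (1.04 ± 0.23, SE), and its other probe set gave 0.76. ODC1, the rate-limiting enzyme of polyamine synthesis and a textbook MYC target, read 10.72 and 11.13 log2 without the drug and 11.88 and 12.02 with it. Its groups did not overlap, and the difference was 1.02 ± 0.19 (adjusted p = 0.200, limma over 14043 genes). BYSL, a small subunit assembly factor, was alike in both untreated arrays (7.94 and 7.92) and read 8.69 and 8.56 in YM155 arrays. RRS1, of large subunit assembly, read 10.05 and 9.27 without the drug and 10.37 and 10.42 with it, so that its difference was 0.35 or 1.12 by the untreated array used.

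Other classic targets did not stand higher. The cell cycle kinase gene CDK4 had a difference of -0.22 ± 0.17 (SE), CCND2 (cyclin D2) -0.21, LDHA (lactate dehydrogenase) -0.057, and CAD, of pyrimidine synthesis, -0.074. The motif CACGTG was in a promoter window of 28 of the 53 activated targets that had one (52.8%). Among tested genes with a window it was found for 12.2%. Of the tested targets, 26 with the motif had a median of 0.19 (18 positive) and 21 without it 0.12 (13 positive), a split that was made after the values were known and was not tested.

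MYC-repressed targets had no common direction: 6 of 12 were positive, with a median of 0.0065 that lay between -0.078 (without untreated replicate 1) and 0.073 (without YM155 replicate 1). THBS1, which encodes the matrix protein thrombospondin 1, had a difference of 1.15 ± 0.20 (SE) in its brightest probe set and between -0.57 and 1.49 in its others. CDKN1A, a cyclin-dependent kinase inhibitor, stood at 0.91 ± 0.12. In their brightest probe sets, the other inhibitor genes CDKN2B (-0.81 ± 0.35) and CDKN1B (-0.71 ± 0.19) and the cyclin gene CCNG2 (-0.81 ± 0.33) stood lower. Against untreated replicates 1 and 2, CDKN2B stood at -1.32 and -0.31 and CCNG2 at -0.34 and -1.28. The other probe set of CDKN2B gave -0.12, with overlap, and those of CCNG2 gave between -1.74 and 0.0039. NDRG1, a stress-responsive gene, showed how far the untreated arrays could part, at 8.30 and 11.71 log2 without the drug and 10.09 and 10.13 with it.

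**Figure D4:**
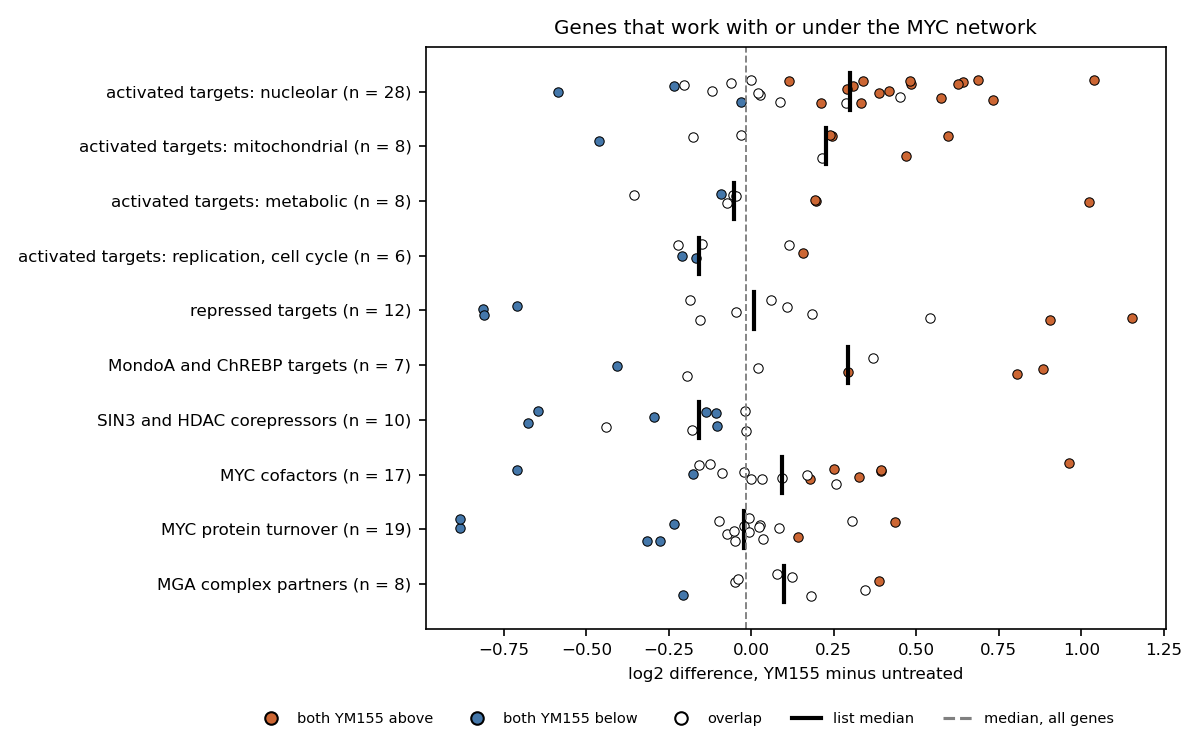
Log2 difference (YM155 minus untreated) of each tested gene in 10 lists, with thick bars for list medians and a dashed line for the median of all genes (-0.015). Orange and blue points are genes whose YM155 arrays both lay above or both below the untreated arrays, and white points overlap; vertical scatter within a row carries no value. Nucleolar targets lie mostly to the right (median 0.30), and the 10 corepressor genes all lie left of 0.

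Targets of MLXIP and MLXIPL were split. PFKFB3, a glycolytic regulator, read 8.40 and 8.49 log2 without the drug and 9.22 and 9.43 with it (0.88 ± 0.14, SE). ARRDC4, an arrestin-domain gene, read 6.35 and 6.53 without the drug and 7.11 and 7.38 with it (0.80 ± 0.16). Their YM155 means were 0.93 and 0.90 above untreated replicate 1 and 0.84 and 0.71 above untreated replicate 2, and both had CACGTG in a promoter window, shown above. TXNIP, a glucose-uptake inhibitor and the best known MondoA target, overlapped between the groups: it read 6.83 and 5.07 without the drug and 6.37 and 6.26 with it. As for MLXIP, untreated replicate 2 was the low array. RGS16 (-0.41) was dim, and its other probe set gave 0.11, with overlap. Over the 7 genes the median was 0.29, with 3 genes above (19.3% of all genes) and 1 below (25.6%) without overlap, and it was 0.039 against untreated replicate 1 and 0.13 against untreated replicate 2.

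The SIN3 and HDAC corepressors, through which MXD proteins and MNT act, had negative differences in 10 of 10 tested genes of 13 listed (the other 3 had no probe set with 1 symbol), with a median of -0.16 (all genes -0.015). Both YM155 arrays lay below both untreated arrays for 6 of them (60%, against 25.6% of all genes). SIN3A, the scaffold that MXD proteins bind, read 8.11 and 8.24 log2 without the drug and 7.58 and 7.42 with it, a difference of -0.68 ± 0.14 (SE; adjusted p = 0.232, limma over 14043 genes). Its dimmer probe sets gave -0.029 and -0.32, with overlap. SAP30, a subunit of the same complex, stood at -0.65 ± 0.23, with -0.92 and -0.75 in its other probe sets, and SIN3B, the second scaffold, at -0.30. RBBP4 (-0.44) overlapped between groups, and its probe sets had both signs. The deacetylase genes HDAC1 (-0.14) and HDAC2 (-0.016) lay near 0.

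MYC cofactors and the genes of MYC protein turnover had no common direction. Of 17 cofactors 10 were positive, with a median of 0.092 that was -0.019 without untreated replicate 2, 0.20 without untreated replicate 1 and 0.011 without YM155 replicate 1. The acetyltransferase gene CREBBP (0.96 ± 0.46, SE) was low in untreated replicate 2 alone, at 7.74 and 6.39 log2 without the drug and 7.94 and 8.12 with it. The other probe sets of CREBBP gave between -0.17 and 0.91. Its relative EP300 stood at 0.39 ± 0.22 and the chromatin gene ACTL6A also at 0.39. CDK9, the kinase of elongating RNA polymerase II, read 8.06 and 7.83 without the drug and 7.29 and 7.18 with it (-0.71 ± 0.15), and its dim second probe set gave 0.31. Of 19 turnover genes 7 were positive, with a median of -0.023 that was -0.14 without untreated replicate 2 and 0.051 without untreated replicate 1. FBXO32, a ubiquitin ligase gene, gave -0.88 ± 0.14 for the brightest of its probe sets and between -0.45 and -0.24 for the others, and AURKA, the mitotic kinase that shields MYC family proteins, at -0.88 ± 0.23. USP36, a nucleolar deubiquitinase of MYC, had positive differences in all 4 probe sets, from 0.31 to 1.23, each without overlap, and USP28, another deubiquitinase, stood at -0.31 ± 0.13.

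Partners of MGA in its Polycomb complex were 5 positive and 3 negative, with a median of 0.10 that was -0.028 without untreated replicate 2 and 0.17 without untreated replicate 1. E2F6, a DNA-binding repressor, read 7.68 and 7.67 log2 without the drug and 7.99 and 8.14 with it (0.39 ± 0.13, SE; adjusted p = 0.348, limma over 14043 genes). L3MBTL2 (0.34) and TFDP1 (0.18) overlapped between groups and were low in untreated replicate 2, and YAF2 stood at -0.21. Other probe sets gave 0.077 for L3MBTL2 and -0.13 and 0.19 for TFDP1.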

How the data were processed

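Intensities of 54675 probe sets on 4 arrays were taken from the table the authors deposited. The submitters' processing notes name RMA, which corrects background, normalizes arrays together and summarises probes; the sources used here state no version of it. The deposited intensity values were linear, so log2 was taken. RMA sets arrays to a common distribution, so a shift shared by all genes is not measured. No label ties same-numbered arrays, and they were not treated as pairs. Control probe sets (62) were left out. The platform annotation gave 1 symbol for 41091 probe sets, several for 1801 and none for 11721.

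Probe sets with a mean log2 value at or above the 40th percentile (3.32) were tested with limma 3.58.1 in R 4.3.3 (lmFit, eBayes, group only, two-sided, Benjamini-Hochberg, threshold 0.05). Gene lists used the brightest probe set per gene (14043 genes). Each gene's spread rests on 2 residual degrees of freedom plus 2.69 from the prior. The fits were tested on simulated data. The number of arrays limits the precision.

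Named were all member probe sets, up to 4 genes of each list by size and the 5 profiles nearest to MYC; CDK4, CCND2, LDHA, CAD, HDAC1, HDAC2, CDKN1B, NDRG1 and the markers were named after their values were seen. Members and lists were chosen with earlier results of these data known. Alternatives were other filters, normalizations, variance models, a replicate block, single arrays left out and other gene summaries.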

Additional observations from a re-analysis of the deposited data

How the results depend on the processing

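The MYC difference kept its direction and stayed short of the threshold under the 10 alternatives of the fit over probe sets, between 0.96 and 1.80 log2, with adjusted p from 0.141 to 1 (limma). In the fit over genes its adjusted p without untreated replicate 1 was 0.105. Probe set calls stayed at 0 higher and 0 lower in all of them. Gene calls stayed at 0 except without untreated replicate 1 (604 higher, 521 lower), and ranged from 0 to 604 higher and from 0 to 521 lower over the arrays left out. The median of the MYC-activated targets lay between 0.060 and 0.23 when single arrays were dropped and was 0.29 when probe sets with the suffixes _x_at and _s_at were excluded, which left 43 of the 57 genes. The MLX difference turned positive, to 0.14, without untreated replicate 1 (lowest value -0.23, without untreated replicate 2). With the replicate number as a block, the MYC difference stayed at 1.38 (adjusted p = 0.574, limma) and 0 probe sets and 0 genes were called. The correlation of same-numbered deviations over probe sets was -0.033. With 2 arrays a group, this value cannot settle whether same-numbered arrays belong together. Counts without 1 untreated array were added after seeing the data. With 2 arrays a group, the 95% interval of every tested member probe set but that of MYC included 0. The largest difference among them was -0.75 log2, for MXI1. The MYC difference of 1.38 did not pass the adjusted threshold either. The causes of these shifts were not tested.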
